A study of Arabidopsis thaliana with 5 samples.

Results

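Transcripts of the methionine sulfoxide reductase genes MSRB6 (AT4G04840) and MSRB9 (AT4G21850) and of the oxidative stress marker gene AT2G21640 were followed in whole Arabidopsis thaliana plants. They are the 3 genes of the set, out of 3602 genes that a probe set named alone, and each was read by 1 of the 8247 probe sets used (14393_at, 16298_at and 12216_at). The genes were chosen by how their intensities differed among these same arrays, so every value below is a description and carries no test. Each of the 5 groups had 1 array, which leaves no spread between replicates and limits the precision of every difference.

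The plants were of the accessions Col-0 and WS, sampled at growth stage 1.04 from a growth room held at 18 degrees and 65% humidity with 16 h of light and 8 h of dark, and no treatment is named in the labels. The groups were 2 without a named line, 1 of each accession, the T-DNA insertion lines CAMTA.1.2 and CAMTA.6.2 of Col-0 background, and a line called CAMTA.1 of WS background. The labels describe CAMTA.1.2 and CAMTA.6.2 as T3-generation transformants made with the vector pROK2, and CAMTA.6.2 as segregating, so that its plants may not share 1 genotype. For CAMTA.1 they give no insertion. CAMTA genes encode transcription factors that bind calmodulin, and the lines bear their names. The source names go against these labels in part, since the Col-0 array carries KO1, CAMTA.6.2 carries WSC and WS carries EX1, so each array is called here by its labelled accession and line.

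Methionine in proteins is oxidised to methionine sulfoxide by reactive oxygen species, and methionine sulfoxide reductases turn it back. The B type acts on the R form of the sulfoxide and draws its electrons from thioredoxins or other thiol donors. Plants have large families of these enzymes, in plastids, cytosol and other compartments. AT2G21640 is a nuclear gene whose transcript is widely used as a marker of oxidative stress and of disturbed mitochondrial respiration.

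Intensities were scaled to a common median, and those under 18.1, the 40th percentile of all values, were taken as too low to be ordered. This level is called the floor. Between 59.0% and 61.9% of probe sets lay above it on each array. The 23 control probe sets for mouse, yeast and Bacillus genes read between 0.6 and 28.7, with 4 of 115 values above the floor. ECS1, a gene known to differ between the accessions, read 6832 in Col-0, 4865 in CAMTA.1.2 and 3545 in CAMTA.6.2, against 97.3 in WS and 39.1 in CAMTA.1, which matched the accession labels of all 5 arrays. The line labels could not be checked in this way. Probe sets differ in how brightly they bind, so intensities are compared between arrays for 1 gene and not between genes. In RNA of whole plants, fewer cells that express a gene and less RNA per cell cannot be told apart.

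MSRB6 was read above the floor on the CAMTA.6.2 array and on no other. Its intensity was 8.87 in Col-0, 11.4 in CAMTA.1.2, 45.8 in CAMTA.6.2, 5.92 in WS and 11.7 in CAMTA.1. The value on the CAMTA.6.2 array was 1.90 times the highest of the 23 foreign controls there, while the other 4 values lay below the highest foreign control of their own array. The order among those 4 arrays cannot be read, since all lay under the floor.

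MSRB9 was read close to the floor on 4 arrays and stood higher on the fifth, CAMTA.1. Its intensity was 20.6 in Col-0, 20.9 in CAMTA.1.2, 23.1 in CAMTA.6.2, 22.5 in WS and 54.5 in CAMTA.1. The 4 lower values were within 1.12-fold of each other across both accessions. The CAMTA.1 value was 2.36-fold above the next, and 3.07 times the highest foreign control on its array. The same ratio was 0.72 in Col-0, 1.60 in CAMTA.1.2, 0.96 in CAMTA.6.2 and 1.03 in WS, so the lower values were in the range of those controls or little above it.

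AT2G21640 was highest on the WS array and second highest on the CAMTA.1.2 array. Its intensity was 17.6 in Col-0, 42.6 in CAMTA.1.2, 14.8 in CAMTA.6.2, 74.1 in WS and 24.7 in CAMTA.1. The Col-0 and CAMTA.6.2 values lay under the floor and so have no order between them. The WS value was 1.74-fold above that of CAMTA.1.2. Each accession therefore held 1 array with a high and at least 1 with a low reading of this gene.

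**Figure D1:**
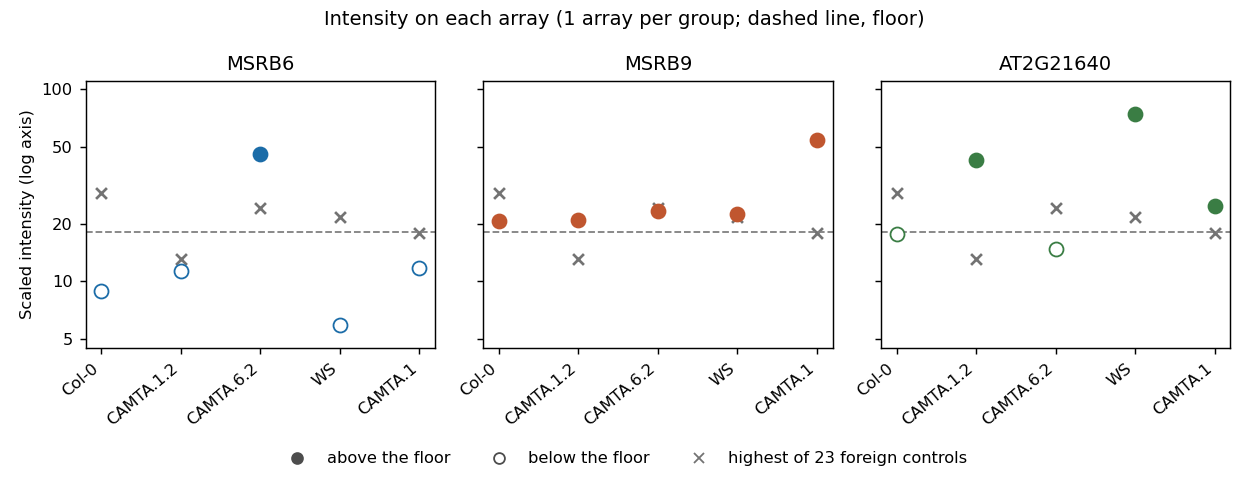
Scaled intensity (log axis) of MSRB6, MSRB9 and AT2G21640 on each of the 5 arrays, with 1 point per array and no replicates; open points lie below the floor of 18.1 (dashed) and crosses mark the highest of the 23 foreign controls on that array. MSRB6 stands out on CAMTA.6.2 at 45.8, MSRB9 on CAMTA.1 at 54.5, and AT2G21640 on WS at 74.1 and CAMTA.1.2 at 42.6.

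The 3 genes thus peaked on 3 different arrays. For each the highest and lowest readings were 2-fold or more apart, as they were for 19.9% of all probe sets. A reading on CAMTA.6.2 at 2-fold or more above each of the other 4 arrays, as for MSRB6, was found for 67 probe sets (0.812%). The same on CAMTA.1, as for MSRB9, was found for 16 (0.194%). WS and CAMTA.1.2 both 2-fold or more above both Col-0 and CAMTA.6.2, as for AT2G21640, was found for 6 (0.0728%), a pattern set out after its values were seen. These genes were chosen for such patterns, so the shares describe the arrays and are not evidence about the genes. Over the 10 pairs of arrays, MSRB6 was 2-fold or more apart in 4 and at the floor on both arrays in 6. Each of the 4 holds the same CAMTA.6.2 reading. MSRB9 was 2-fold or more apart in 4 pairs, each with the same CAMTA.1 reading. AT2G21640 was so in 5, each with the WS or the CAMTA.1.2 reading. The pairs thus repeat the same readings, and their share over all probe sets was not counted.

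The comparison of CAMTA.1.2 with Col-0 asks which transcripts differ in this insertion line. AT2G21640 was at least 2.35-fold higher on the CAMTA.1.2 array, a bound because the Col-0 value of 17.6 lay just under the floor. It was the 1 gene of the 3 counted as higher, where 0.400% of all probe sets were. None of the 3 could be counted as lower, as 1.53% of all were. Their Col-0 readings lay under the floor or just above it. MSRB9 differed by 0.02 on the log2 scale and MSRB6 was under the floor on both arrays. With a floor at the 50th percentile, an intensity of 29.2, the log2 difference of AT2G21640 fell from 1.23 to 0.53. With no floor and a pseudocount of 16 it was 0.80, and neither value reaches 2-fold. Of 12 root marker genes, 7 were measured, and their summed level was 552 on the CAMTA.1.2 array and 541 on the Col-0 array. Of these, 1 was 2-fold or more higher, AT5G46900 at 148 against 46.8, and none lower. The ratio of the 3' to the 5' ubiquitin control, a sign of RNA quality, was 2.68 against 2.64, and that of the GAPDH control was 1.94, the highest of the 5 arrays, against 1.64. The part of these in the AT2G21640 reading was not tested.

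CAMTA.6.2 was set against the same Col-0 array. MSRB6 was higher in CAMTA.6.2 by at least 2.53-fold, at 45.8 against 8.87. It was again 1 of 3, where 3.47% of all probe sets were higher. None of the 3 could be counted as lower, as 4.17% of all were, because of the same dim Col-0 readings. MSRB9 was 1.12-fold higher, at 23.1 against 20.6, and AT2G21640 was under the floor on both arrays. The log2 difference of MSRB6 was 1.34, a bound set by the floor, so it moved to 2.09 with a floor at the 30th percentile and to 0.67 with one at the 50th, where it no longer reached 2-fold.

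Other measures of these plants and arrays differed beside the MSRB6 reading. Of the 7 measured root markers, 5 were higher in CAMTA.6.2 than in Col-0 by 2-fold or more and none lower. Of all probe sets, 3.47% were higher and 4.17% lower. The summed level of the root markers was 1624 against 541, with 7 and 6 of the 7 above the floor. Of 12 leaf and chloroplast markers, 5 were measured, with 2 higher, 1 lower and a summed level of 12932 against 9587. LHB1B2 and PSAE-1 were the higher ones and LHCB4.3 the lower, and the median log2 difference of the 5 was -0.14. The ubiquitin 3' to 5' ratio was 3.57 against 2.64, and that of GAPDH 1.78 against 1.64. The part of these differences in the MSRB6 reading was not tested. None of the 5 flower and 5 seed markers listed had a probe set of its own.

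CAMTA.1 was set against WS, the accession it is labelled with. MSRB9 was higher in CAMTA.1 by 2.43-fold, at 54.5 against 22.5, with both values above the floor. AT2G21640 went the other way and was 2.99-fold lower, at 24.7 against 74.1, also with both values above the floor. MSRB6 was under the floor on both. Of the 3 genes 1 was therefore higher, where 2.41% of all probe sets were, and 1 lower, where 3.71% were. Only AT2G21640 could be counted as lower, because the WS readings of MSRB6 and MSRB9 lay under the floor or close to it. The log2 difference of MSRB9 was 1.28, and fell under 2-fold at 0.89 with a floor at the 50th percentile and at 0.87 with no floor and a pseudocount of 16. That of AT2G21640 was -1.58 and stayed beyond 2-fold in the settings tried, from -1.71 with the values as deposited to -1.14 with the pseudocount.

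The scaling between these arrays bears on the split of all calls. It gave 199 probe sets higher and 306 lower on CAMTA.1, against 131 and 377 with the values as deposited, and moved the median log2 difference of probe sets that exceeded the floor on every array from 0.00 to 0.13. MSRB9 stayed 2-fold or more higher without it, at a log2 difference of 1.15. Of all probe sets, 2.41% were 2-fold or more higher on CAMTA.1 than on WS and 3.71% lower. Of the 7 measured root markers 1 was 2-fold or more higher, AT4G12545 at 647 against 103, and none lower. Their summed level was 2401 against 1340.0, to which AT4G12545 adds much of the difference, and their median log2 difference was 0.41. Of the 5 measured leaf and chloroplast markers 1 was higher and 1 lower, with a summed level of 10881 against 7375. The ubiquitin 3' to 5' ratio was 3.32 against 2.28, and that of GAPDH 1.29 against 1.38. Their part in the MSRB9 reading was not tested.

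The accessions were compared through the WS and Col-0 arrays that name no line. AT2G21640 was at least 4.09-fold higher on the WS array, at 74.1 against 17.6. It was 1 of 3 genes higher, where 1.59% of all probe sets were. None of the 3 could be counted as lower, as 2.56% of all were, because of the same dim Col-0 readings. The WS reading of AT2G21640 is the same as in the comparison with CAMTA.1, so the pair of differences is not independent. The other WS array, that of CAMTA.1, read 24.7, at a log2 difference from Col-0 of at least 0.45. The Col-0 array of CAMTA.1.2 read 42.6. The highest and second highest readings of AT2G21640 were thus on arrays of different accessions.

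MSRB9 differed between WS and Col-0 by 0.12 on the log2 scale, and MSRB6 was under the floor on both. The split of all probe sets was 131 higher and 211 lower, and 171 and 180 with the values as deposited. Root markers differed here too, with 6 of the 7 measured 2-fold or more higher on the WS array, where 1.59% of all probe sets were. The summed level of these markers was 1340.0 against 541. The 5 measured leaf and chloroplast markers had a summed level of 7375 against 9587. None of them was 2-fold apart, and their median log2 difference was -0.3. Array quality values also lay apart. The background given in the labels was 92.64 on the WS array, the highest of the 5, and 75.57 on the CAMTA.1.2 array, the second highest, and these are the 2 arrays with the highest AT2G21640 readings. It was 74.44 on the CAMTA.6.2 array, which had the lowest reading, 64.86 on CAMTA.1 and 60.73 on Col-0. The median of the foreign controls was lower on them than on the others, at 5.55 and 4.33 against 6.26 to 8.16. The part of the markers, of the control ratios and of the background in the AT2G21640 reading was not tested.

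**Figure D2:**
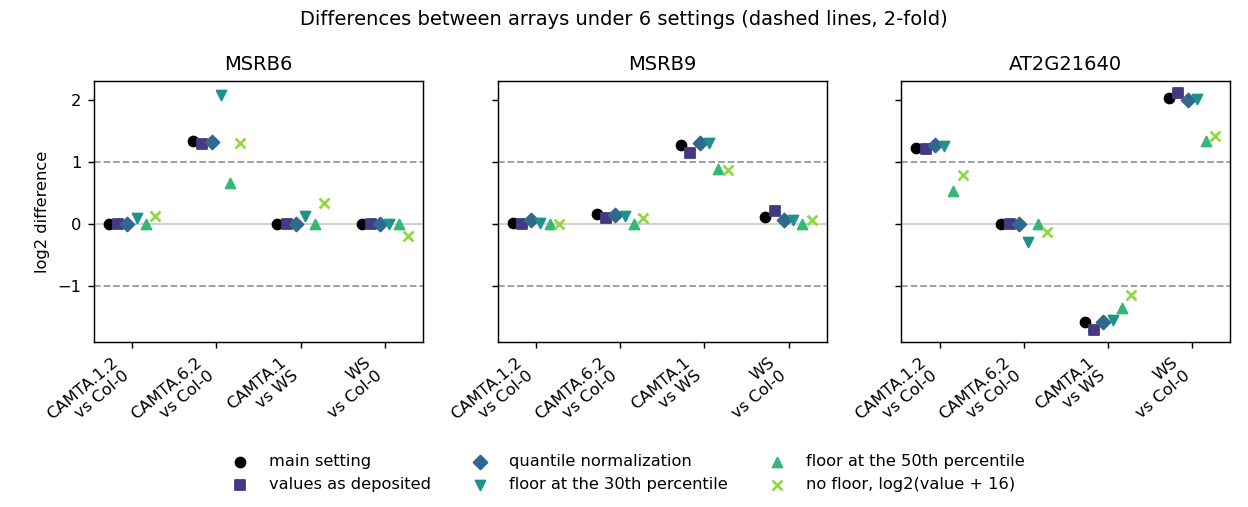
Log2 difference of MSRB6, MSRB9 and AT2G21640 in the 4 comparisons (1 array against 1 array) under the main setting and 5 alternatives, with dashed lines at 2-fold. Every difference beyond 2-fold in the main setting keeps its direction in the 5 others, while the sizes of AT2G21640 in CAMTA.1.2, MSRB6 in CAMTA.6.2 and MSRB9 in CAMTA.1 fall below the line with a floor at the 50th percentile.

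Other methionine sulfoxide reductases were measured on the same arrays for 2 of 12 family members, and neither was 2-fold apart in any of the 4 comparisons. MSRB5 (AT4G04830), another B-type enzyme, read 375 in Col-0, 364 in CAMTA.1.2, 413 in CAMTA.6.2, 384 in WS and 311 in CAMTA.1. Its highest and lowest readings were 1.33-fold apart. MSRA5 (AT2G18030), of the A type, whose enzymes reduce the S form of the sulfoxide, read 28.1, 29.0, 36.3, 36.0 and 26.0 in that order, 1.40-fold from lowest to highest. Both were highest on CAMTA.6.2 and lowest on CAMTA.1, by less than 2-fold. A probe set that names MSRB3 and MSRB4 together was not used, and the other members were not analysed here.

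MSRB6 and MSRB9 lie in separate groups of related genes. In the order of protein-coding genes of the TAIR10.1 annotation, MSRB3, MSRB4 and MSRB5 are among the 5 genes on one side of MSRB6, and MSRB7, MSRB8 and MSRB2 are among the 5 to either side of MSRB9. Each group also has a gene of the DER2 pair, which encode derlin proteins of the endoplasmic reticulum, DER2.2 beside MSRB6 and DER2.1 beside MSRB9. Of the 10 neighbours of MSRB6, 3 had a probe set of their own, and 2 of these, MSRB5 and DER2.2, lay above the floor on all 5 arrays. Neither was 2-fold apart in the 4 comparisons, with log2 differences from -0.31 to 0.57. MSRB5, the nearest gene on that side, differed by 0.14 between CAMTA.6.2 and Col-0, where MSRB6 differed by at least 1.34. Whether the probe sets of MSRB5, MSRB6 and MSRB9 also detect related reductases was not examined.

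Of the 10 neighbours of MSRB9, 5 had a probe set of their own, but only DER2.1 lay above the floor on all 5 arrays, with log2 differences from -0.71 to 0.49. Of those of AT2G21640, 4 had one, and RD2 and AT2G21630 lay above the floor on all 5 arrays, with log2 differences from -0.43 to 0.67. RD2, a gene named for its response to desiccation that lies near AT2G21640, read 619 on the WS array against 415 on the Col-0 array, a log2 difference of 0.58. AT2G21680, which was above the floor on the WS array only, read 4.19 in Col-0, 6.44 in CAMTA.1.2, 5.27 in CAMTA.6.2, 23.9 in WS and 5.96 in CAMTA.1. Like AT2G21640 it was highest on WS, and its differences there are only bounds. The remaining neighbours with a probe set lay under the floor on 2 or more arrays, so most of their differences cannot be sized.

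The genes of the surrounding redox pathways were taken from 6 lists of 111 loci, of which 13 were measured. Between CAMTA.1.2 and Col-0 none of the 13 was 2-fold apart, with a median log2 difference of 0.02 beside 0.03 over all probe sets above the floor on either array. The medians of the 13 include NDB4, which lay under the floor on every array and so differed by 0 by construction. The medians beside them leave such probe sets out. Between CAMTA.6.2 and Col-0, 2 were lower and none higher, with a median of 0.00 beside 0.05. For CAMTA.1 against WS it was 1 higher and 1 lower, with a median of 0.00 beside 0.09. For WS against Col-0 it was also 1 and 1, with a median of -0.09 beside 0.00. Of all probe sets, 0.400% were higher and 1.53% lower between CAMTA.1.2 and Col-0. The shares were 3.47% and 4.17% for CAMTA.6.2 against Col-0. They were 2.41% and 3.71% for CAMTA.1 against WS, and 1.59% and 2.56% for WS against Col-0.

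Of 18 genes of the mitochondrial stress response, 2 had a probe set of their own, and 1 of these could be set beside AT2G21640. AT2G32020, which encodes an acetyltransferase-like protein, read 59.1 in Col-0, 40.2 in CAMTA.1.2, 5.27 in CAMTA.6.2, 37.4 in WS and 28.1 in CAMTA.1. It was highest on Col-0, where AT2G21640 lay under the floor, and it was at least 3.27-fold lower on CAMTA.6.2. NDB4, an external NAD(P)H dehydrogenase of mitochondria, was under the floor on all 5 arrays and has no order to compare.

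Of 37 antioxidant enzyme genes, 5 were measured. SAPX, the stromal ascorbate peroxidase that removes hydrogen peroxide, read 61.8 in Col-0, 62.7 in CAMTA.1.2, 54.4 in CAMTA.6.2, 139 in WS and 147 in CAMTA.1. The arrays labelled WS were both above the 3 labelled Col-0, and SAPX was 2.25-fold higher in WS than in Col-0. With no floor and a pseudocount of 16, no listed gene was 2-fold higher in that comparison. GR1, a glutathione reductase, read 266 on the Col-0 and 115 on the WS array and was 2.32-fold lower in WS. The peroxiredoxin gene 2CPA (AT3G11630), which reduces peroxides in the chloroplast, was 2.28-fold higher on CAMTA.1 than on WS, at 980 against 431, by a probe set marked as shared between similar transcripts. TAPX and GR2, read by probe sets with the same mark, were less than 2-fold apart in all 4 comparisons.

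Thiol donors supply the electrons that methionine sulfoxide reductases use. Of 13 listed, TRXY2, a plastid thioredoxin, and NTRC, a plastid thioredoxin reductase, were measured and neither was 2-fold apart in a comparison. TRXY2 read 118 on the Col-0 array, 95.2 on CAMTA.1.2, 93.2 on CAMTA.6.2, 88.3 on WS and 52.0 on CAMTA.1. Its lowest reading was thus on the CAMTA.1 array, where MSRB9 was highest. Of 17 glutathione transferases only GSTF3 was measured, by a probe set marked as shared by a sequence family, and its log2 differences ran from -0.99 to 0.49. Of 14 oxidative stress regulators only STZ was, a zinc finger repressor, with log2 differences of -1.71 between CAMTA.6.2 and Col-0 and of -2.39 between CAMTA.1 and WS.

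**Figure D3:**
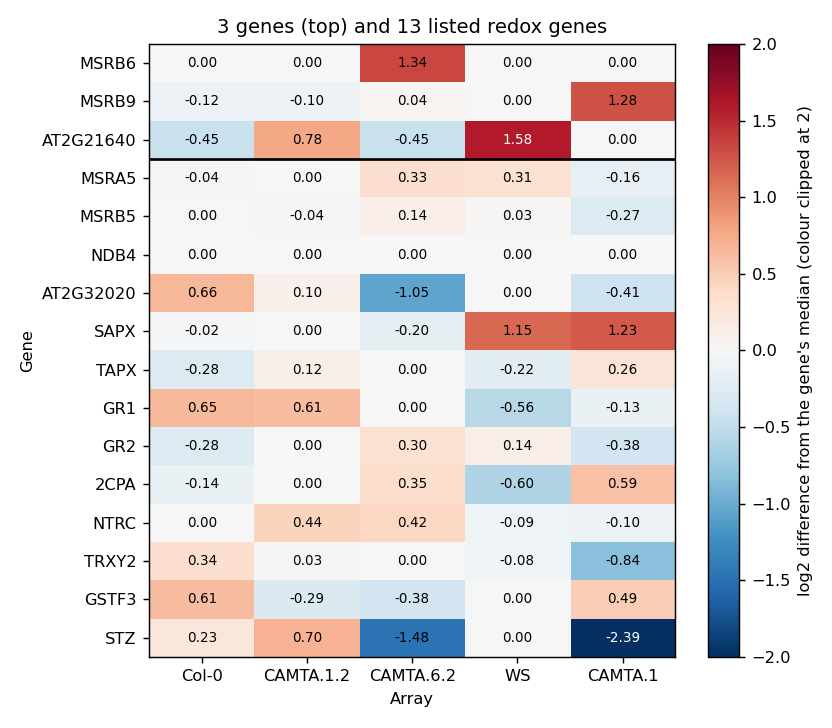
Log2 difference of each gene from its own median over the 5 arrays, after values under the floor were set to it, for MSRB6, MSRB9 and AT2G21640 (above the line) and the 13 measured genes of the redox lists; columns are arrays, red is higher and blue lower. MSRB6 is at 1.34 on CAMTA.6.2 and MSRB9 at 1.28 on CAMTA.1, where the listed reductases MSRB5 and MSRA5 lie between -0.27 and 0.33.

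Likeness of pattern was measured as the root mean square difference between log2 values, each gene centred on its mean over the 5 arrays. The nearest genes came from 2437 probe sets that name 1 other gene and lie above the floor on at least 1 array. The 3 genes were not close to each other, at 0.82 for MSRB6 and MSRB9, 1.14 for MSRB6 and AT2G21640, and 1.02 for MSRB9 and AT2G21640. Nearest to MSRB6 were 3xHMG-box1, a chromatin protein gene, at 0.05, AT2G43230 at 0.06, AT2G19970 at 0.10, AT4G18340 at 0.12 and SWEET17, a vacuolar fructose transporter gene, at 0.14. SWEET17 read 58.6 on the CAMTA.6.2 array and 17.9 to 23.2 on the others. Most of these genes also lay close to the floor away from CAMTA.6.2, and values set to the floor are alike by construction. 3xHMG-box1 lay above the floor on CAMTA.6.2 only. The genes nearest to each of the 3 were picked for likeness, so a peak on the same array follows from the choice.

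Nearest to MSRB9 were AT3G19100 at 0.10, AT2G07180 at 0.11, AT2G28600 at 0.16, AT2G35170 at 0.17 and AT2G40960 at 0.19. AT3G19100 read 26.2 in Col-0, 27.4 in CAMTA.1.2, 31.2 in CAMTA.6.2, 30.9 in WS and 61.4 in CAMTA.1, above the floor on all 5. AT2G40960 lay above the floor on CAMTA.1 only. Nearest to AT2G21640 were CSLB03, a cellulose synthase-like gene, at 0.23, AT3G46890 at 0.31, AT4G32240 at 0.37, AT4G32250 at 0.37 and AT4G33150 at 0.39. CSLB03 read 13.7 in Col-0, 34.7 in CAMTA.1.2, 3.30 in CAMTA.6.2, 50.7 in WS and 7.70 in CAMTA.1. These 5 distances were larger than those of the genes nearest to MSRB6 and MSRB9. With the floor, AT2G21640 spanned 4.09-fold over the arrays, against 2.53-fold for MSRB6 and 2.64-fold for MSRB9. The measure tends to be larger for genes with larger differences, so its sizes do not rank how unusual each pattern is.

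**Figure D4:**
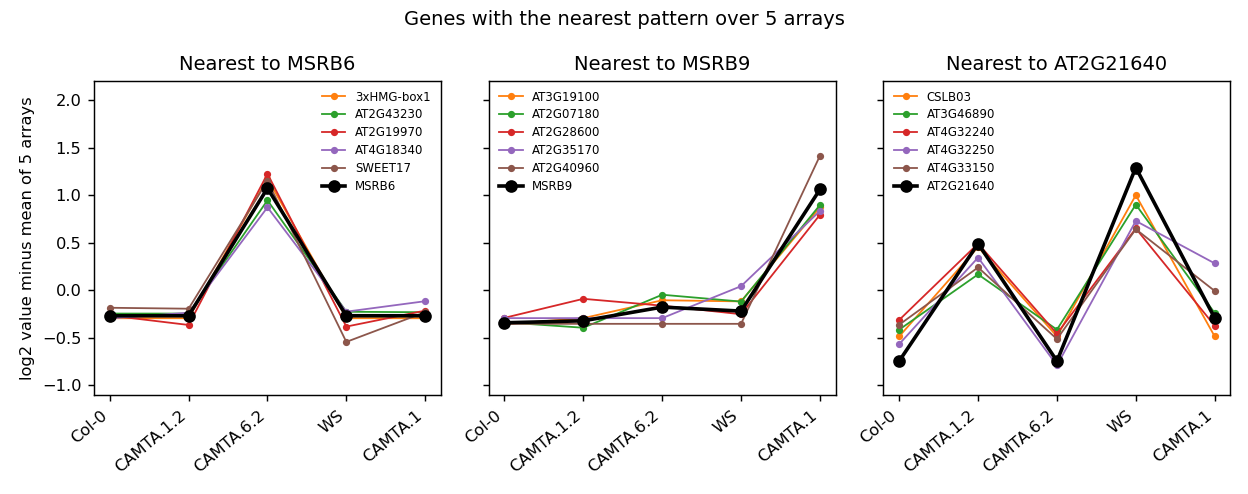
Log2 value of each gene minus its mean over the 5 arrays, for MSRB6, MSRB9 and AT2G21640 (black) and the 5 named genes nearest to each; lines join arrays only to guide the eye, since the arrays have no order. The nearest genes were picked for likeness to the pattern, so a peak on the same array follows from the choice. It lies on CAMTA.6.2 for MSRB6, on CAMTA.1 for MSRB9 and on WS for AT2G21640. The genes nearest to AT2G21640 have smaller peaks than its own.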

How the data were processed

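The authors deposited a linear intensity for each probe set on each array, from biotin-labelled cRNA on Affymetrix arrays per the labels' protocols. The 2% trimmed mean of the arrays was 100.1 to 100.2. How probes were summarised is not stated in the labels, and no detection calls were used. Of 8297 probe sets, 50 controls were left out. Each array was divided by a factor (0.968 to 1.064) that equalised the median log2 value of 4245 probe sets, those which exceeded the floor on every array. Lower values were then raised to the floor, and a fold against it is a bound. Probe sets were named from the platform annotation, updated by gene ID to the TAIR10.1 gene table. Of these, 3794 named 1 gene, 70 several and 4383 none, and the 70 named no gene here. A gene with several used the brightest on average. Arrays were grouped by labelled accession and line, compared at 2-fold with no test, and each pair of arrays shared the same value at 0.91% to 1.29% of probe sets. The members and lists were chosen with earlier results of these data known. Named genes were the members, list genes at 2-fold or more, the 5 nearest in pattern and ECS1, and other measured list genes and neighbours were added after their values were seen. The promoter and protein comparisons that had been planned were not made here. The steps were tested on simulated data with changes put only into probe sets well above the floor. Recovery of changes at dim readings, such as most of those of the 3 genes, was not tested. Python 3.11.15, numpy 2.4.6, pandas 2.3.3 and scipy 1.17.1 were used.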

Additional observations from a re-analysis of the deposited data

Results flagged for a closer look

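AT2G21640 moved in opposite directions in the lines whose names begin with CAMTA.1, each set against the array of its own accession. It was higher by 1.23 or more on the log2 scale in CAMTA.1.2 against Col-0 and differed by -1.58 in CAMTA.1 against WS, which puts the differences at least 2.82 apart with the floor used, a size that depends on that floor. With 1 array on each side this contrast was not tested, and the labels do not say that these lines carry the same change.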

How the results depend on the processing

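Of 160 recomputed values, 144 moved by at most 1.5 times and, where they were differences, kept their side of 2-fold. No difference of 2-fold or more in the main setting reversed. The rest of the 160 are counts, which have no direction to reverse, or smaller differences. Some of those are 0 in the main setting because both readings lay under the floor, so part of this tally was fixed in advance. Listed genes lower in CAMTA.6.2 against Col-0 went from 2 to 3 with the values as deposited, with quantile normalization and with a floor at the 30th percentile. With a floor at the 50th percentile, AT2G21640 in CAMTA.1.2 against Col-0 fell under 2-fold at 0.53, MSRB6 in CAMTA.6.2 against Col-0 at 0.67 and MSRB9 in CAMTA.1 against WS at 0.89, and AT2G21640 in WS against Col-0 moved to 1.35. With no floor and a pseudocount of 16, these were 0.80 for AT2G21640 in CAMTA.1.2, 0.87 for MSRB9 and 1.42 for AT2G21640 in WS, since both settings raise the value that a dim array is given. A floor at the 30th percentile put MSRB6 in CAMTA.6.2 at 2.09. Counts of probe sets for CAMTA.1.2 against Col-0 went from 33 higher to 64 and from 126 lower to 193 with the floor at the 30th percentile, and the higher ones to 21 with the floor at the 50th and to 15 with the pseudocount. For CAMTA.1 against WS, 199 higher became 131 with the values as deposited (25.8% of calls higher, 39.4% in the main setting) and 127 with the pseudocount. For WS against Col-0, 131 higher became 85 with the pseudocount, and listed genes higher went from 1 to 0. The share higher there was 38.3%, and 48.7% with the values as deposited. Averaging all probe sets of a gene changed no count of listed genes, but it could change little. MSRB6, MSRB9 and AT2G21640 have 1 probe set each, and of the measured listed genes only TAPX and STZ have more. No paired analysis was possible because each group had 1 array, and the labels give no replicate numbers. The readings of MSRB6, MSRB9 and AT2G21640 lay close to the floor on most arrays, which limits every size given.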

Other observations

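The pattern of AT2G21640 had the WS and CAMTA.1.2 arrays both 2-fold or more above the Col-0 and CAMTA.6.2 arrays. It was shared by 5 probe sets that name either no gene or several. One of these, 13282_s_at, read 8.57 in Col-0, 125 in CAMTA.1.2, 11.0 in CAMTA.6.2, 151 in WS and 1.23 in CAMTA.1. Another, 20297_at, read 70.4, 244, 46.5, 209.9 and 26.3 in the same order. These probe sets were picked after their values were seen.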
